A study of Homo sapiens with 16 samples.

Results

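The inhibitor of DNA binding genes ID1, ID2, ID3 and ID4 and the inhibitory SMAD genes SMAD6 and SMAD7 were followed through 45 h of treatment of MCF10A cells with a small-molecule inhibitor of the HER2 receptor tyrosine kinase. MCF10A cells are human mammary epithelial cells that grow in culture without being transformed. The members were all rows of the intensity file whose gene symbol is one of these 6, which gave 1 row for each gene, 6 of 18190 gene symbols in the file. Untreated cells gave the 0 h array, and cells kept in 1 µM of the inhibitor gave 1 Illumina human Ref8v2 array every 3 h from 3 to 45 h, so that there were 16 arrays and no replicates. All cells were of the same line and grew in serum-free medium with insulin, EGF and hydrocortisone, and the medium was changed when treatment began. There was no untreated series alongside, so that the inhibitor, the change of medium and time in culture cannot be told apart in any value below.

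ID proteins carry the helix-loop-helix domain of a transcription factor without the region that binds DNA. They pair with E proteins such as TCF3 and keep them off E-box sequences, and in epithelial cells they are associated with growth and with holding back differentiation. ID1, ID2 and ID3 are well-known direct targets of BMP signalling, in which receptors phosphorylate SMAD1, SMAD5 and SMAD9 and these enter the nucleus with SMAD4. SMAD6 and SMAD7 are induced by the same family of signals and act as feedback inhibitors, SMAD6 mainly on BMP and SMAD7 on both BMP and TGF-beta receptors.

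Between 50.1% and 52.9% of the 20589 rows were above background on an array, that is, had a detection p-value under 0.05 against the negative control beads of the same array. Intensities were corrected for background, quantile normalized and put on the log2 scale, on which 1 unit is a doubling; the lowest level of a detected row on an array, called the floor here, was 6.07 to 6.19. A row was tested when it was above background on at least 3 of 16 arrays, which left 11957 rows, 5 of them members. ID1, ID2, ID3 and SMAD7 were above background on all 16 arrays, ID4 on 14 and SMAD6 on 2, so that SMAD6 was not tested. With 1 array at each time, precision is limited by how many arrays there are. Probes differ in efficiency, and levels of different genes are therefore not compared with each other.

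Epithelial markers were present. All 4 general epithelial markers, CDH1, EPCAM, KRT8 and KRT18, were above background on all 16 arrays, and so were the basal markers KRT5, KRT17 and ITGB4, with a median deposited intensity of 33440 for KRT5. KRT14, another basal keratin, was above background on 1 array only, and TP63 on 10. Of 4 markers of hormone-responsive luminal cells, ESR1 and PGR were above background on none, FOXA1 on 16 and GATA3 on 15. All 4 fibroblast markers and all 3 adipocyte markers were at background throughout, as were VWF and CDH5 of endothelium and CD3D of leukocytes, while the endothelial marker PECAM1 was above background on 15 arrays and the leukocyte markers CD14 and PTPRC on 12 and 5.

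Over the whole course 3 of the 5 tested members, ID1, ID2 and ID3, depended on time in a limma fit of a smooth curve (a natural spline with 3 degrees of freedom), as did 54.7% of all tested probes. The adjusted p-value, corrected over all 11957 probes, was 0.00017 for ID1, 0.0009 for ID2 and 0.0079 for ID3, against 0.41 for ID4 and 0.55 for SMAD7. A straight line in place of the curve passed for ID3 only, since ID1 and ID2 came down and went up again. The same 3 genes were at least 1.7-fold from their 0 h level on some later array, which was seen for 43.7% of tested probes (5227, and 2184 with no background correction) and carries no test. Their extremes were 1.94-fold below the start at 30 h for ID1, 3.17-fold below at 30 h for ID2 (near the floor, with deposited intensities of 432.8 at 0 h and 239.6 at 30 h) and 3.64-fold below at 3 h for ID3, while ID4 came to 1.30-fold and SMAD7 to 1.62-fold. By the same measure without the 0 h array, that is, from 3 h, 2 members passed.

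The promoters of ID1, ID2 and ID3 are shown because these are the members that depended on time. The sequences are from RefSeq on GRCh38.p14 and run from 250 bases before the transcription start to 50 bases after it; the promoters of all 6 members were found in that table, with 3 start sites for SMAD7. The windows are chr20:31605039-31605338 on the plus strand for ID1, chr2:8681806-8682105 on the plus strand for ID2 and chr1:23559452-23559751 on the minus strand for ID3, and each takes in the beginning of its gene. Capitals mark the E-box CANNTG, the CCAAT box and the TATA box TATAAA, the first 2 searched on both strands (so that CCAAT also reads as its complement) and the last on the transcribed strand.
ID1: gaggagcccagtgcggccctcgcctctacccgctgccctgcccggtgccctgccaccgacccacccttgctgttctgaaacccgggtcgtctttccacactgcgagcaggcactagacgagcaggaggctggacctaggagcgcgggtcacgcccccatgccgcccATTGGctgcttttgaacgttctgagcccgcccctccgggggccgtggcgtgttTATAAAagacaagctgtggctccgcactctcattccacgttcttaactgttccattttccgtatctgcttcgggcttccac
ID2: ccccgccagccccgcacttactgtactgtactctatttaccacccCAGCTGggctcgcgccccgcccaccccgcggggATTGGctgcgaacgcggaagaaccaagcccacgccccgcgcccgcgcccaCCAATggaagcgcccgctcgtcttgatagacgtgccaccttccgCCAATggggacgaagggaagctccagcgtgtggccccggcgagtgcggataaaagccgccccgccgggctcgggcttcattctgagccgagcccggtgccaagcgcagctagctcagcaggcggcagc
ID3: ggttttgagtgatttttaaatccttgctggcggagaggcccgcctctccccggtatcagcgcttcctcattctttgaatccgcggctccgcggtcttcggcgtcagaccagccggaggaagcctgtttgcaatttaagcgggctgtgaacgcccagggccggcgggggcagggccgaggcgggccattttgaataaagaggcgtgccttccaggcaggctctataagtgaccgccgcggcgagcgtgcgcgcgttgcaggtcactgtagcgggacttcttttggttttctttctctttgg
The ID1 window held 1 CCAAT at position -84 from the start and 1 TATAAA at -31, and no CANNTG. The ID2 window held 3 CCAAT, the first at -172, and 1 CANNTG at -205. The ID3 window held none of these motifs. Among 35116 promoter windows of the same length, 34.6% held CCAAT, 68.7% held CANNTG and 7.33% held TATAAA. The SMAD box half-site GTCT occurred on either strand 3 times in the ID1 window and 2 times each in the ID2 and ID3 windows, but 84% of all windows hold it; the GC-rich SMAD element GGCGCC occurred in none of the 3, against 19.2% of all windows. A match is a string of letters and not a site shown to be bound. Sequence further than 250 bases before the start was not searched, so that absence from a window says nothing of elements beyond it.

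ID3 had the sharpest movement of the set. Its log2 levels were 10.66 at 0 h, 8.80 at 3 h, 8.94 at 6 h, 9.21 at 9 h and 10.06 at 12 h. They then ran from 10.06 to 10.23 between 12 and 21 h, from 10.29 to 10.41 between 24 and 33 h and from 10.76 to 10.85 between 36 and 45 h. In deposited intensity this was 1668 before treatment, 585.9 at 3 h and 2057 at the highest, 36 h. The 3 arrays from 3 to 9 h lay below the other 13, and the last 4 lay above all the others.

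The step of ID3 from 0 to 3 h was a 3.64-fold difference between single arrays. Of the other tested probes, 21 of 11956 fell at least as far in that step. Among them, picked after their values were seen, were the immediate early gene FOS, the stress-response genes DDIT3 and GADD45G, the transcriptional repressor BCL6, the chemokine receptor gene CXCR4 and the cytokine gene CSF2. Of these 21, BCL6, C20orf177, CSF2 and CXCR4 also went up from 9 to 12 h by at least as much as ID3, whose step there was 1.81-fold.

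The early fall was tested between pairs of arrays, 6 and 9 h against 0 and 3 h. No tested member was called in either direction by limma at an adjusted p under 0.05, where 13.2% of all tested probes were higher and 11.5% lower, and no member had an unadjusted p under 0.05, against 2220 probes higher and 2071 lower. ID3 was at -0.66 (SE 0.34, adjusted p = 0.18), with the already low 3 h array in the earlier pair. Without the 0 h array the sign turned, and ID3 at 6 and 9 h was 0.27 above the single 3 h array. Without the 3 h array ID3 fell by 1.59 on the log2 scale from 0 h to 6 and 9 h (SE 0.13, adjusted p = 1e-07), in a fit that assumes the single 0 h array to vary as the pairs do; 12.1% of 11888 probes were then lower. In that fit ID1 was at -0.35 (SE 0.13, adjusted p = 0.052), ID2 at -0.85 (SE 0.32, adjusted p = 0.057) and SMAD7 at 0.53 (SE 0.21, adjusted p = 0.067).

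Over the later windows ID3 rose. Its mean log2 level was 9.40 ± 0.86 (SD over 4 time points) at 0-9 h, 10.13 ± 0.07 at 12-21 h, 10.34 ± 0.05 at 24-33 h and 10.81 ± 0.05 at 36-45 h. The last window was 1.41 above the first (SE 0.26, 95% confidence interval 0.86 to 1.95, adjusted p = 0.00054), which is 2.65-fold, and all 4 late arrays were above all 4 early ones. Adjusted p ran up to 0.039 over the 28 alternatives to this comparison, all of which called it. Because the first window holds both the 0 h array and the low arrays after it, the rise is measured mostly from the low; at 45 h ID3 was 0.10 above its 0 h level.

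For ID3 the rise from 0-9 h to 12-21 h, 0.73 (SE 0.26, adjusted p = 0.042), was a borderline call. Leaving out any 1 array other than that of 0 h ended it, with an adjusted p of 0.0505 to 0.153, and so did a fit with no background correction, one with no intensity trend in the prior variance, and leaving out 21 and 33 h together. Without the 0 h array the value was 1.16 with an adjusted p of 3.2e-07. From 24-33 h to 36-45 h ID3 went from 10.34 to 10.81, a difference of 0.46 with an adjusted p of 0.18, which came to 0.46 and 0.000275 without the 0 h array.

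ID1 came down early in the treatment and went back up at 36 h. Its row was taken as one that combines several probes because its detection p-values do not fall on the steps that those of single probes do. How they would have been combined is not given in the sources used here. The log2 level was 10.82 at 0 h and 10.36, 10.54 and 10.40 at 3, 6 and 9 h. It lay between 10.03 and 10.19 from 12 to 21 h, between 9.86 and 10.18 from 24 to 33 h, and was 10.62, 10.88, 10.87 and 10.94 at 36, 39, 42 and 45 h. The 8 arrays from 12 to 33 h were all below the other 8.

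ID1 fell from 10.53 ± 0.21 (SD, 4 time points) at 0-9 h to 10.12 ± 0.07 at 12-21 h, a log2 change of -0.41 (SE 0.11, adjusted p = 0.0084). With median scaling in place of quantile normalization the change was -0.23 and was not called (adjusted p = 0.118). From 10.01 ± 0.16 at 24-33 h it rose to 10.83 ± 0.14 at 36-45 h, by 0.82 (SE 0.11, adjusted p = 1.5e-05), or 1.77-fold, under every one of the 25 alternatives. Most of that rise fell in 1 step, from 33 to 36 h, where ID1 went up 1.67-fold and 3.71% of tested probes went up as much or more.

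ID1 ended close to where it began. The window of 36-45 h was 0.30 above that of 0-9 h (SE 0.11, 95% confidence interval 0.07 to 0.53, adjusted p = 0.045). This call did not hold in 17 of 28 alternatives, among them no filter on dim probes, no intensity trend, 42-45 h against 0-3 h (0.32, adjusted p = 0.084), the 8 arrays compared on their own (adjusted p = 0.115) and leaving out the array of 3, 6, 9, 12, 15, 18, 21, 27, 39, 42 or 45 h, with adjusted p from 0.0511 to 0.122. With median scaling the value was 0.45 (adjusted p = 0.00433).

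ID2 fell to near the floor by 12 h and had returned in part from 33 h on. Its log2 level was 8.06 at 0 h, 7.33 at 3 h, 7.49 at 6 h and 6.93 at 9 h. At 12, 15 and 18 h it was 6.44, 6.57 and 6.45, and at 24, 27 and 30 h 6.46, 6.43 and 6.39. The arrays of 21 and 33 h stood out at 7.20 and 7.18, near the 7.20 to 7.42 of the last 4 arrays. No later array reached the 0 h level.

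The fall of ID2 from 7.45 ± 0.47 (SD, 4 time points) at 0-9 h to 6.67 ± 0.36 at 12-21 h was -0.78 (SE 0.23, 95% confidence interval -1.26 to -0.31, adjusted p = 0.014), and it was called in all 25 alternatives, with -0.36 in the one with no background correction. From 6.62 ± 0.38 at 24-33 h to 7.31 ± 0.11 at 36-45 h ID2 rose by 0.69 (SE 0.23, adjusted p = 0.021). That rise was 0.30 with no background correction (adjusted p = 0.0321), and it was no longer called without the array of 24 h (0.64, adjusted p = 0.0593), 27 h (0.63, 0.0628), 30 h (0.62, 0.0651) or 45 h (0.66, 0.0546). The last window against the first was -0.14 (SE 0.23, 95% confidence interval -0.61 to 0.34, adjusted p = 0.68).

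The single high arrays of ID2 were rare among tested probes. From 18 to 21 h ID2 went up 1.68-fold, from 21 to 24 h it went down 1.67-fold, and from 30 to 33 h it went up 1.73-fold. In deposited intensity it was 260.1, 320.2 and 242.4 at 18, 21 and 24 h, and 239.6 and 318.6 at 30 and 33 h. The low arrays were near the floor, where the size of a log2 step, and so its rank among probes, depends on the background correction. At least as large a step in the same direction was seen in 99, 73 and 31 of the other 11956 probes, and no other probe made both upward steps. At these steps 1.05%, 0.953% and 0.46% of tested probes moved at least 1.7-fold either way. With 1 array per time point it was not tested whether they belong to the cells or to the arrays.

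**Figure D1:**
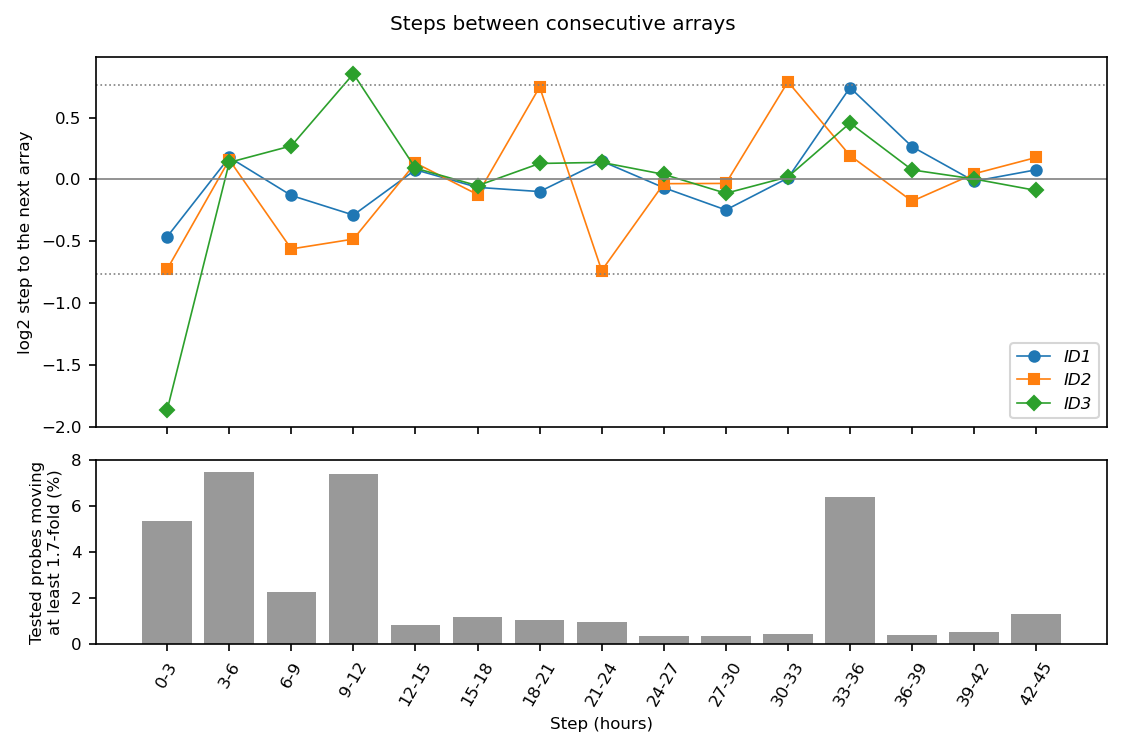
Above, the log2 step of ID1, ID2 and ID3 from each array to the next (vertical axis) over the 15 steps of 3 h (horizontal axis), with dotted lines at 1.7-fold; below, the percent of tested probes that moved at least 1.7-fold in either direction in the same step. The steps of ID3 from 0 to 3 h and from 9 to 12 h and that of ID1 from 33 to 36 h fall where 5.35%, 7.36% and 6.38% of all tested probes moved, and those of ID2 at 21, 24 and 33 h where 1.05% or fewer did.

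ID4 and SMAD7 had no change past the test. ID4 was between 5.99 at 12 h and 6.66 at 24 h, close to the floor throughout, and was not above background at 12 and 15 h. SMAD7 was between 6.79 at 0 h, its lowest value, and 7.49 at 9 h, with window means of 7.15 ± 0.29, 7.11 ± 0.11, 7.15 ± 0.16 and 7.10 ± 0.05 (SD, 4 time points). For 36-45 h against 0-9 h the 95% confidence interval was -0.23 to 0.26 for ID4 and -0.33 to 0.24 for SMAD7 on the log2 scale. Close to background a log2 difference is compressed, and these intervals bound what was measured rather than the change in transcript.

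SMAD6 was above background at the last 2 time points alone. Its log2 values lay between 5.45 and 6.04 on the 14 arrays from 0 to 39 h, all not above background, and were 6.50 at 42 h and 6.60 at 45 h. Without the filter, the spline of time passed (adjusted p = 0.00025), 36-45 h against 24-33 h gave 0.51 (SE 0.15, adjusted p = 0.016) and 36-45 h against 0-9 h gave 0.43 (SE 0.15, adjusted p = 0.052), with the earlier windows wholly at background, so that neither difference is a fold change of the transcript. In deposited intensity SMAD6 was 236.6 at 0 h, between 170.5 and 216.1 on the arrays from 3 to 39 h, 248.5 at 42 h and 232.6 at 45 h. The mean of the negative controls, estimated from the detection p-values, was 196 at 0 h, 176.4 at 39 h, 176.2 at 42 h and 165.8 at 45 h. From 39 to 42 h SMAD6 thus went from 200.4 to 248.5 while the negative controls stayed level, whereas the 45 h intensity was under that of 0 h on an array with lower negative controls.

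In counts over the windows, 1 tested member was higher and 2 were lower at 12-21 h than at 0-9 h, where 15.1% of all tested probes were higher and 14.4% lower, 1808 and 1722 probes. With median scaling 1 member was lower, and 2805 probes were higher and 1030 lower. Between 12-21 h and 24-33 h limma called no member in either direction, nor any probe higher (0%), and 3 probes lower (0.0251%); at an unadjusted p under 0.05 there were 308 probes higher, ID4 among them, and 277 lower. At 36-45 h against 24-33 h, 2 members were higher and 0 lower, and 19.3% and 18.7% of all tested probes. At 36-45 h against 0-9 h, 2 members were higher and 0 lower, and 16.2% and 15.0% of all tested probes. Fewer probes were lower there with median scaling. Far fewer were called in either direction without the step between 21 and 24 h. That fit adds the change into 12-21 h and the change into 36-45 h, and so has a larger SE. For ID1 it gave 0.41 (SE 0.15) in place of 0.30 (SE 0.11). Its lower counts therefore cannot show what the step contributed. Unadjusted, members lower at 36-45 h against 24-33 h and against 0-9 h also came to 0, with 2701 and 2503 probes. With 5 tested members these shares set no member apart from the array as a whole.

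**Figure D2:**
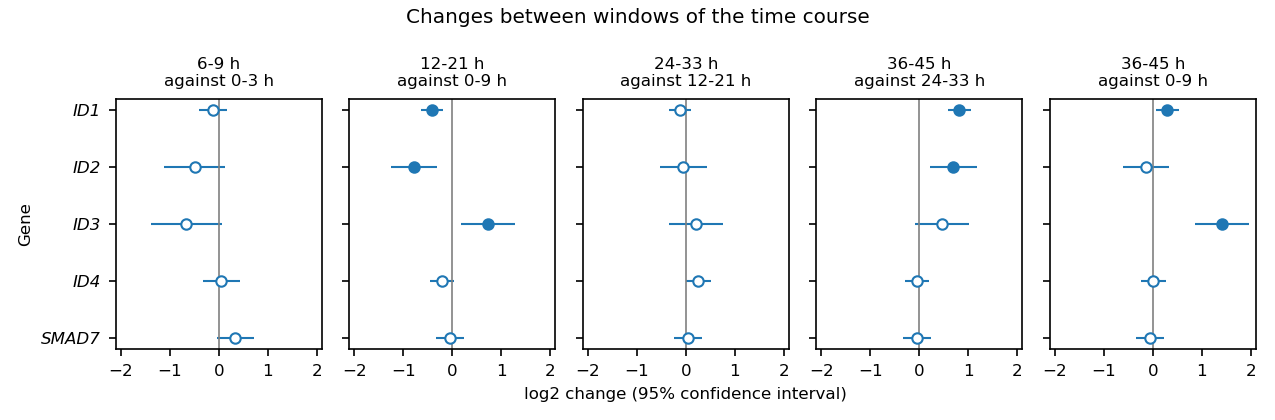
Log2 change (horizontal axis) with its 95% confidence interval for the 5 tested genes (vertical axis) in 5 comparisons of time windows; filled points have an adjusted p under 0.05 over all tested probes. ID1 and ID2 are below 0 at 12-21 h and above 0 at 36-45 h against 24-33 h, with the ID1 fall lost under median scaling, and ID3 is 1.41 higher at 36-45 h than at 0-9 h.

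With each course centred on its mean, the root mean square difference over 16 arrays was 0.36 between ID1 and ID2, 0.63 between ID1 and ID3 and 0.78 between ID2 and ID3. ID1 itself lay 0.35 from its own mean, and ID4, which moved little, was about as far from ID1 as ID2 was, at 0.36. The pair of ID4 and SMAD7 had the smallest difference of the 15 pairs, 0.22, and nearest to ID1 was the untested SMAD6, at 0.26. SMAD6 was not above background on 14 of the 16 arrays, so that no likeness of transcripts can be read from its distance. Of all tested probes, 6.72% were as near to ID1 as SMAD6 was and 27.4% as near as ID2 was, while 88.7% were as near to ID1 as ID3 was and 91.9% as near to ID2 as ID3 was. These are descriptions over 16 arrays and carry no test.

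Other genes ran closer to each of the 5 tested members than any member did. The 5 symbols nearest to ID1 were VPS28 (root mean square difference 0.10), PDLIM1 (0.12), SH3BGRL, PEX11G and CES2, all of which were high at both ends of the series and low between. Nearest to ID2 was SLC9A2, a sodium-hydrogen exchanger gene, at 0.17. It too was higher at 21 h (6.92, against 6.46 at 18 h and 6.44 at 24 h) and at 33 h (6.89, against 6.60 at 30 h); VGLL4, ZFP36, CD79B and KIAA0746 followed. Nearest to ID3 were ATAD4 (0.17), ALS2CR13, the metallothionein gene MT1E, GADD45G and ANKRD10. Each of these 5 was lower at 3 h than at 0 h, GADD45G at 7.20 after 9.77 and ATAD4 at 9.36 after 10.83. Nearest to ID4 were SATL1, SRCAP, CST3, MGC71993 and NDUFB8, and nearest to SMAD7 were S100A16, DYNLT1, MRCL3, ATP5S and the basal keratin gene KRT5. The log2 ranges of these neighbours ran from 0.26 for NDUFB8 to 0.78 for S100A16, which went from 13.2 at 0 h to 14.0 at 9 h.

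Around these genes, the list of BMP and TGF-beta signalling held 92 genes, of which 91 were on the array (TGIF1 was not matched) and 47 were tested. Of these 47, 20 depended on time, 42.6%, against 54.7% of all tested probes. At 12-21 h against 0-9 h, 4 were higher and 6 lower (15.1% and 14.4% of all tested probes); at 36-45 h against 24-33 h, 10 higher and 3 lower (19.3% and 18.7%); at 36-45 h against 0-9 h, 8 higher and 4 lower (16.2% and 15.0%); and at 6-9 h against 0-3 h, 7 and 7 (13.2% and 11.5%). The list's median log2 change was -0.06, 0.06, 0.00 and -0.25 in these comparisons, beside 0.00, 0.00, -0.02 and -0.01 for all tested probes. None was called between 12-21 h and 24-33 h.

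Of 31 ligand genes only 9 were tested. GDF15, a stress-induced divergent member of the family, was at 11.96 at 0 h, 10.63 at 3 h, 8.40 at 6 h and 8.20 at 9 h, and fell by 3.00 from 0-3 h to 6-9 h (SE 0.30, adjusted p = 4.6e-06). BMP2, a ligand that induces ID genes, was at 9.68 at 0 h and between 7.03 and 7.87 on all 15 later arrays; its dependence on time (adjusted p = 0.0016) rested on the untreated array and was not called without it (0.118). INHBB, which encodes an activin subunit, rose by 1.21 from 24-33 h to 36-45 h (SE 0.12, adjusted p = 9.2e-07). TGFB2 was at background throughout. BMP4, another BMP ligand, was above background on 2 arrays by its detection p-value and so was not tested, although its window means of 7.64, 7.62, 7.47 and 6.96 lie above the floor. The other tested ligands were GDF2, AMH, GDF11, INHBA, INHBC and BMP8B. Of these, AMH (-0.64, SE 0.17, adjusted p = 0.01) and GDF11 (-0.70, SE 0.24, adjusted p = 0.041) were called lower at 6-9 h than at 0-3 h by limma.

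Of 14 receptor genes, 8 were tested and 4 were higher at 36-45 h than at 24-33 h, as were 19.3% of all tested probes. TGFBR3, a co-receptor that presents ligand, had a mean of 6.98 ± 0.42 (SD, 4 time points) at 0-9 h and 8.88 ± 0.09 at 36-45 h, a rise of 1.90 (SE 0.21, adjusted p = 4.6e-06; 1.11 with no background correction). ACVR1, a type I receptor for BMPs, fell by 1.10 from 0-3 h to 6-9 h (SE 0.11, adjusted p = 6.6e-06) and rose by 0.71 from 24-33 h to 36-45 h (SE 0.20, adjusted p = 0.011). BMPR2, the type II BMP receptor gene, had window means of 7.34 at 0-9 h and 7.88 at 36-45 h. It is one of the 4 by a rise of 0.36 from 24-33 h (SE 0.13, adjusted p = 0.031; 0.20 with no background correction), which was not called with no filter on dim probes, without 21 and 33 h together, or without the array of 24 h (0.33, adjusted p = 0.0803), 27 h (0.37, 0.0571), 33 h (0.34, 0.0682), 39 h (0.32, 0.0903) or 42 h (0.29, 0.107). The co-receptor gene ENG had 7.38 at 24-33 h and 6.78 at 36-45 h, a difference of -0.59 (SE 0.19, adjusted p = 0.019; -0.27 with no background correction) that was not called without the array of 30 h (-0.55, adjusted p = 0.0533), 42 h (-0.54, 0.0547) or 45 h (-0.43, 0.0788). TGFBR2 was not tested: its row is one of 104 rows taken as combined that have a median intensity above 300 and were not passed by the detection p-value.

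None of the 5 tested signal-transducing SMAD genes was called in the spline test with quantile normalization and all 16 arrays; with median scaling SMAD4 (adjusted p = 0.0112) and SMAD5 (0.0247) were, as was SMAD5 without the array of 0 h (0.0039). SMAD5, a BMP-responsive SMAD, rose by 0.57 from 0-9 h to 12-21 h (SE 0.15, adjusted p = 0.0092), after 10.53 to 10.87 at 3 to 9 h. Its 0 h level was 11.52, within the 11.37 to 11.63 of that later window, and without the 3 h array 6-9 h was lower than 0 h (-0.82, adjusted p = 0.000709). At 36-45 h against 0-9 h SMAD5 was called higher (0.45, adjusted p = 0.032), but not at 42-45 h against 0-3 h (0.25, adjusted p = 0.364), without the step between 21 and 24 h, with the 8 arrays alone, or without the array of 3 h (0.38, adjusted p = 0.0871), 6 h (0.44, 0.062), 9 h (0.32, 0.0977), 39 h (0.42, 0.0815) or 45 h (0.40, 0.0924). SMAD1 was at -0.71 at 6-9 h against 0-3 h by limma (SE 0.21, adjusted p = 0.019, and -0.31 with no background correction). It was not called without the array of 0 h (-0.64) or 9 h (-0.63). Its level was 6.11 at 6 h, near the floor, and 5.93 at 9 h, not above background. The difference of -0.71 is therefore not a fold change of the transcript. SMAD2, SMAD3 and SMAD4, the last shared by both branches, had ranges of 0.70, 0.77 and 0.53 over the 16 arrays and no call in the windows or pairs; under alternatives SMAD3 was called lower at 6-9 h than at 0-3 h without the array of 0 h (-0.63, adjusted p = 0.0282) or 6 h (-0.58, 0.0457), and SMAD4 without that of 9 h (-0.39, 0.0235), while at 36-45 h against 0-9 h SMAD4 was called higher with median scaling (0.34, 0.00546) and with residuals within pairs (0.20, 0.0346). SMAD9 was not tested.

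Among antagonists, BAMBI, a pseudoreceptor that blocks signalling, was highest before treatment at 12.38 and lowest at 36 h at 10.69. It fell by 0.69 from 0-9 h to 12-21 h (SE 0.13, adjusted p = 0.00082) and by 1.00 from 0-9 h to 36-45 h (SE 0.13, adjusted p = 2.1e-05). NOG, encoding the secreted BMP antagonist noggin, was not above background at 0 h (5.58) or 3 h (5.70) and was above it from 6 to 18 h and on 9 arrays in all. Its difference of 0.87 between 6-9 h and 0-3 h (SE 0.21, adjusted p = 0.0052; 0.42 with no background correction and 0.58 with an offset of 50) has its whole reference at background and is not a fold change of the transcript. FST, encoding follistatin, which binds activins, was highest at 12 h at 7.42 and lowest, not above background, at 42 h at 6.02.

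All 3 tested genes of the latent TGF-beta binding protein family were higher at 36-45 h than at 24-33 h, as were 19.3% of all tested probes. LTBP4 rose by 1.43 (SE 0.14, adjusted p = 1.1e-06) and LTBP3 by 0.61 (SE 0.14, adjusted p = 0.0027), the latter 0.32 with no background correction. Both were called lower at 12-21 h than at 0-9 h before that. For LTBP3 this was -0.47 (adjusted p = 0.02, and -0.28 with no background correction), not called with median scaling, without 21 and 33 h together, or without the array of 0 h (-0.39, adjusted p = 0.0563), 3 h (-0.39, 0.0687) or 18 h (-0.39, 0.0683). For LTBP4 it was -0.41 (adjusted p = 0.038), not called with median scaling (-0.27, adjusted p = 0.175), with no filter on dim probes, without 21 and 33 h together, or without the array of 0 h (-0.31, adjusted p = 0.11), 3 h (-0.43, 0.0624), 6 h (-0.41, 0.0658), 12 h (-0.39, 0.0907) or 21 h (-0.32, 0.123). LTBP4 ended 0.72 above its first window (adjusted p = 0.00097). LTBP3 stood at -0.36 against its first window, which was not called (adjusted p = 0.066). It was called lower there only with residuals within pairs, at 42-45 h against 0-3 h (-0.64, adjusted p = 0.00913) and without the array of 9 h (-0.48, 0.0117). LTBP2 had its main rise earlier, 0.78 from 0-9 h to 12-21 h (SE 0.09, adjusted p = 1.6e-05), and its later 0.28 (adjusted p = 0.023) was not called with median scaling (0.20, adjusted p = 0.128), with no filter on dim probes, without 21 and 33 h together or without the array of 27 h (adjusted p = 0.0595), 30 h (0.0609), 39 h (0.0518), 42 h (0.0615) or 45 h (0.0514).

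Regulators inside the cell and other targets moved both ways. TGIF2, a repressor that binds SMADs, rose by 1.05 from 0-3 h to 6-9 h (SE 0.15, adjusted p = 9.8e-05). PMEPA1, a TGF-beta target whose product restrains SMAD2 and SMAD3, fell by 0.50 from 0-9 h to 12-21 h (SE 0.09, adjusted p = 0.00039; -0.30 with median scaling) and rose by 0.41 from 24-33 h to 36-45 h (adjusted p = 0.0012), which was 0.17 and not called with median scaling (adjusted p = 0.2). Its last window was at -0.17 against the first (adjusted p = 0.14). LEMD3, between 8.93 and 9.60 on all arrays, was called lower at 36-45 h than at 24-33 h (-0.30, SE 0.11, adjusted p = 0.045), but not in 12 of 25 alternatives: cyclic loess, no filter on dim probes, without 21 and 33 h together, and without the array of 12, 18, 24, 27, 30, 33, 36, 39 or 42 h, with adjusted p from 0.0532 to 0.103. GADD45B rose by 0.97 from 0-9 h to 36-45 h (SE 0.14, adjusted p = 4.9e-05), while MSX1, a homeobox gene induced by BMPs, fell by 1.02 from 24-33 h to 36-45 h (SE 0.24, adjusted p = 0.003; -0.52 with no background correction). MSX1 had been at 6.99 at 0 h and 8.19 at 3 h, and its late arrays, at 6.90 to 7.13, were back near the untreated level. Its earlier difference of 0.95 between 6-9 h and 0-3 h (adjusted p = 0.016, and 0.55 with no background correction) was not called without the array of 0 h (0.35, adjusted p = 0.276) or 6 h (0.82, 0.0907) and was 1.56 without that of 3 h. TGFBI, a TGF-beta target with a range of 0.29, was called lower at 36-45 h than at 0-9 h (-0.19, SE 0.06, adjusted p = 0.026), but not with median scaling (-0.07, adjusted p = 0.525), cyclic loess or no intensity trend, without the step between 21 and 24 h, or without the array of 39 h (-0.17, adjusted p = 0.073), 42 h (-0.17, 0.0688) or 45 h (-0.17, 0.0687).

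None of the 3 E protein genes, whose products ID proteins bind, was called in the spline test with quantile normalization, 3 degrees of freedom and all 16 arrays. The spline was called for TCF3 with median scaling (adjusted p = 0.0229) and with 5 degrees of freedom (0.0255), and for TCF12 with median scaling (0.0302) and without the array of 12 h (0.0109). TCF3 was higher at 12-21 h than at 0-9 h by 0.46 (SE 0.16, adjusted p = 0.04). That call did not hold with no filter on dim probes or without the array of 6 h (0.42, adjusted p = 0.085), 9 h (0.34, 0.103), 15 h (0.50, 0.051), 18 h (0.30, 0.149) or 30 h (0.46, 0.05). TCF3 was lowest at 9 h at 8.20 and highest at 18 h at 9.48, TCF12 ranged over 0.77, and TCF4 was above background on 8 arrays. The 27 named genes of the list passed 59 tests in all, and 26 of these calls held under every alternative run.

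**Figure D3:**
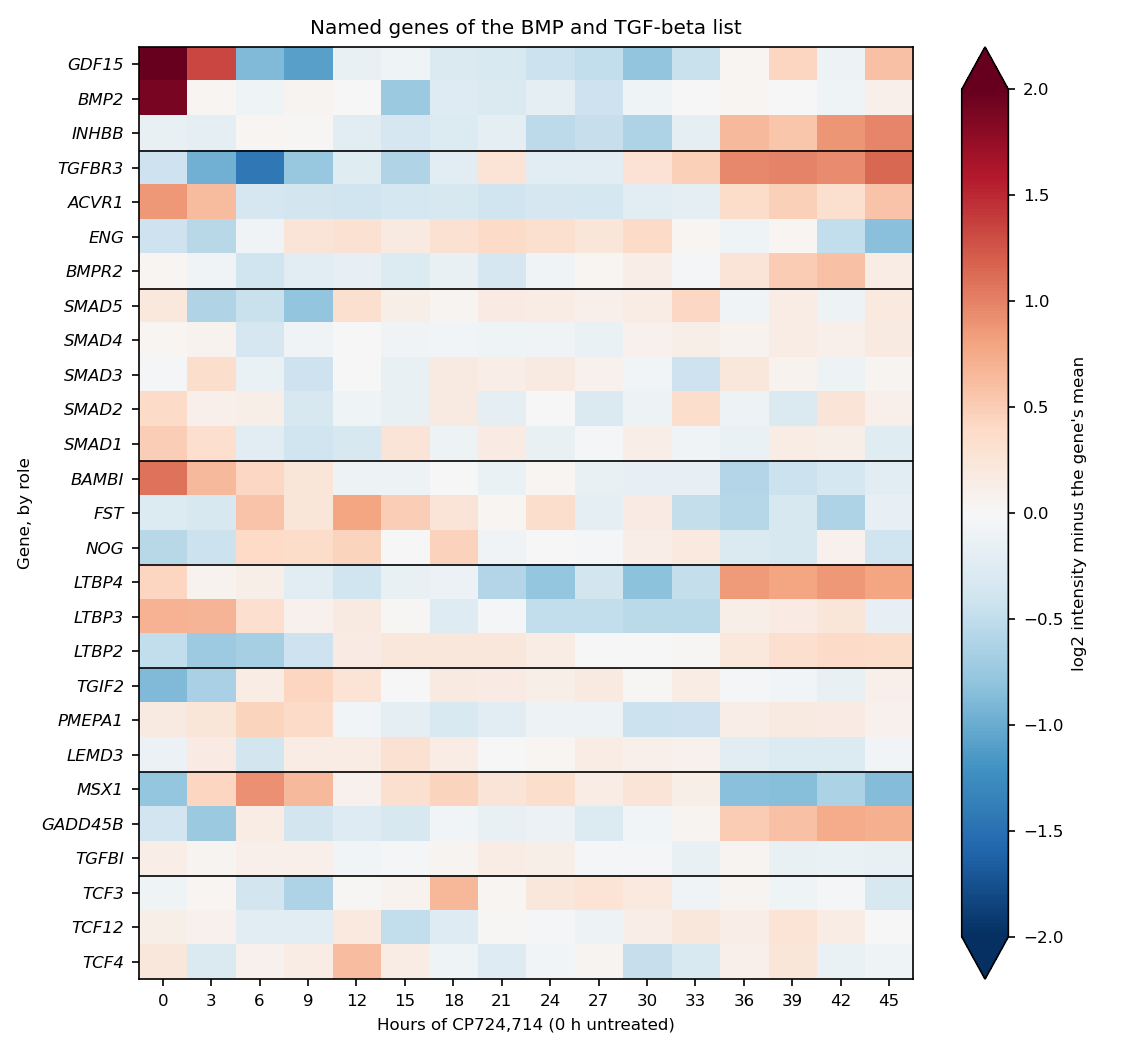
Log2 intensity minus each gene's mean (color, cut at 2 in either direction) for the 27 named genes of the BMP and TGF-beta list (vertical axis, lines separate ligands, receptors, SMADs, antagonists, latent binding proteins, regulators, other targets and E proteins) against hours of inhibitor treatment (horizontal axis). GDF15 and BMP2 are highest at 0 h, and TGFBR3, INHBB, LTBP4 and GADD45B are highest at 36-45 h.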

How the data were processed

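RNA of MCF10A cells was measured on 16 Illumina bead arrays. The deposited intensity values are linear and not normalized between arrays, and the deposited detection p-value compares each row with the negative control beads of its array; the authors state quantile normalization for their own analysis. Here limma 3.58.1 in R 4.3.3 applied normexp background correction, taking the level of the negative controls from the detection p of the 19092 rows whose p is a multiple of 1 in 708 (within 0.001 of a step), an offset of 16, quantile normalization and log2. Rows with detection p under 0.05 on at least 3 arrays were fitted with a spline of time and with 4 windows of 4 time points (12 residual degrees of freedom each) or 8 pairs (8), with an intensity trend. The 4 time points of a window differ in time, and their spread includes change within the window. P-values were adjusted by Benjamini-Hochberg over all 11957 rows and called under 0.05. The functions were tested on simulated data. From the pathway list, up to 4 genes with the largest range among those passing the spline test or a window comparison were named in each role, and all tested SMAD and E protein genes; for each tested member the 5 nearest symbols. For 1 gene of the pathway list, counted in its totals, and 1 marker, values are not reported here. The members and lists were chosen with earlier results of these data known. Alternatives changed background correction, offset, normalization, filter, curve, prior variance, windows, reference, fold, probes and single arrays.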

Additional observations from a re-analysis of the deposited data

How the results depend on the processing

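No paired analysis was possible because each time point has a single array. No called value of a member or named pathway gene changed direction: of 759 values of single members under alternatives, 715 kept their side of the threshold, 42 lost the call and 2 gained it, and of 4107 values of named pathway genes 3898, 155 and 54 did. Of 903 counts, 820 stayed within 1.5 times. ID4 and SMAD6 lie near background, which limits what their intensities can show. Rows never above background had a median intensity of 182.1 to 192.2 on the arrays of 0 to 21 h and of 160.6 to 179.4 on those of 24 to 45 h; the labels name no batch, and the comparisons of 24-33 h with 12-21 h and of 36-45 h with 0-9 h cross that step. Its part in them was not tested. The fit that leaves the step out has a larger SE, so that a call lost in it does not show that the step made the call.

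Over all tested probes, the 1.7-fold count was 2184 with no background correction and 2945 at 2-fold, and a straight line in time called 1950. At 12-21 h against 0-9 h median scaling gave 2805 higher and 1030 lower. At 24-33 h against 12-21 h it gave 8 higher; residuals within pairs gave 2 higher and 6 lower, and no intensity trend 1 lower. At 36-45 h against 0-9 h leaving out the step between 21 and 24 h gave 868 higher and 749 lower, median scaling 1029 lower and the 8 arrays alone 1119 lower; the first and the last of these were chosen after seeing the data, as was leaving out 21 and 33 h together.

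Of the members, 0 were higher at 12-21 h than at 0-9 h with no background correction, with no intensity trend and without 21 and 33 h, and 1 was lower with median scaling. At 36-45 h against 0-9 h, 1 was higher with no filter, with no intensity trend, at 42-45 h against 0-3 h, without the step between 21 and 24 h, without 21 and 33 h and with the 8 arrays alone. A straight line called 1 member and 6 pathway genes. Of pathway genes, median scaling and leaving out 21 and 33 h each gave 3 lower at 12-21 h. At 36-45 h against 0-9 h leaving out the step gave 5 higher and 1 lower, median scaling, cyclic loess and no intensity trend 2 lower, and residuals within pairs 7 lower. The cause was not tested for any of these.

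Leaving out each array in turn moved some counts. Over all tested probes the lowest and highest counts were 0 to 2 higher at 24-33 h against 12-21 h, 1 to 5 lower at 24-33 h against 12-21 h, 955 to 1755 higher at 6-9 h against 0-3 h and 739 to 1439 lower at 6-9 h against 0-3 h. For the members they were 0 to 1 higher at 12-21 h against 0-9 h, 1 to 2 higher at 36-45 h against 0-9 h, 1 to 3 higher at 36-45 h against 24-33 h and 0 to 1 lower at 6-9 h against 0-3 h. For the pathway genes they were 2 to 5 higher at 12-21 h against 0-9 h, 2 to 5 lower at 36-45 h against 0-9 h, 1 to 4 lower at 36-45 h against 24-33 h and 4 to 7 higher at 6-9 h against 0-3 h.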
